A study of Homo sapiens with 9 samples.

Results

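The 78 genes described here encode the proteins of the mitochondrial ribosome, or mitoribosome, that carry the names MRPL (large subunit) and MRPS (small subunit). They were chosen by name alone, as every gene of the deposited table whose symbol is MRPL or MRPS followed by a number and an optional letter A, B or C, among 60683 genes listed. RNA was sequenced from Hep3B cells, a human liver cancer line, after 24 hours with vehicle (DMSO) at 20% O2, vehicle at 1% O2, or 32-134D, an inhibitor of the hypoxia-inducible factors (HIFs), at 1% O2. Each group held 3 libraries from biological replicates of the same line, and no library had 32-134D at 20% O2, so a response to the compound could be measured in hypoxic cells only. The dose of 32-134D was not given in the sample labels. All 78 genes had enough reads to be tested.

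The mitoribosome translates the mRNAs of the mitochondrial genome, which encode core subunits of the respiratory chain and of ATP synthase. Its 2 ribosomal RNAs, 12S and 16S, are transcribed from mitochondrial DNA, whereas every one of its proteins is encoded in the nucleus, made in the cytosol and imported. Some of these proteins have counterparts in bacterial ribosomes, and others occur only in mitochondria. The names follow history rather than structure. MRPS30 (mL65) and MRPS18A (mL66) sit in the large subunit, and MRPS36 is now known as a component of the 2-oxoglutarate dehydrogenase complex and not of the ribosome. Placed by structure, the 78 genes comprised 51 of the large subunit, 26 of the small subunit and MRPS36.

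Total counts ran from 6013980 to 40549699 per library. Levels are given as CPM, read counts scaled to library size after TMM scaling, a correction for library composition. Calls required an FDR below 0.05 over the 22672 genes tested with edgeR's quasi-likelihood test, and a fold change above 1.5. All 5 HIF target genes used as a check, CA9 and VEGFA among them, were higher in hypoxia and lower with 32-134D. All 11 hepatocyte markers exceeded 1 CPM, and among 11 markers of other cell types 3 did (COL1A1, LUM and PDGFRB), while CD3E, VWF and DES had no count. Of those 11 markers, 5 had enough reads to be tested. Their summed level was 36.8 to 39.0 CPM in vehicle at 20% O2, 17.9 to 18.8 CPM at 1% O2 and 35.8 to 44.7 CPM with 32-134D. PDGFRB made up most of it, with means of 27.2, 10.1 and 22.0 CPM, whereas LUM had 2.43, 3.76 and 8.39 CPM. In hypoxia 3 of the 5 had a negative and 2 a positive log2 fold change, and their part in the results was not tested. Among the hepatocyte markers, APOB averaged 4487, 406 and 3520 CPM in the same order of groups, and ALB 9284, 9536 and 8116 CPM. The lower sum of these markers in hypoxia was due to APOB. Of the 11, 5 had a positive and 6 a negative log2 fold change in hypoxia. The hepatocyte markers summed to 18412 to 19868 CPM, 13508 to 16855 CPM and, with 32-134D, 18189, 17909.8 and 11846 CPM. Replicate 3 of 32-134D thus stood apart from its group, since chi-square divided by its degrees of freedom was 36.2 and 40.5 against the other two and 2.08 between those. Without it, members called in hypoxia were 25 higher and 3 lower and, with the compound, 1 higher and 12 lower. In bulk RNA, a change in RNA per cell cannot be told apart from a change in the share of cells that express a gene.

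Summed over the 78 genes, the level was 4198, 3523 and 3565 CPM in vehicle at 20% O2, 4706, 4896 and 4915 CPM in vehicle at 1% O2, and 3921, 3846 and 3864 CPM in 32-134D at 1% O2. The means were 3762 ± 378, 4839 ± 116 and 3877 ± 39.5 CPM (SD, n = 3). On this scale the hypoxic vehicle libraries stood above all others and the other two groups overlapped. That separation depends on the TMM factors, which were 1.065 for replicate 1 of vehicle at 20% O2 and 0.9305, 0.9007 and 0.903 for vehicle at 1% O2. Without these factors, replicate 1 of vehicle at 20% O2 would not lie below the hypoxic vehicle libraries. Replicate 1 of vehicle at 20% O2 was the highest library of its group for 66 of the 78 genes. Per kilobase of transcript, the scale on which genes may be compared, the median member had 36.0 CPM per kilobase in vehicle at 20% O2. The highest levels were those of MRPL51 at 156 ± 22.9, MRPL49 at 146 ± 6.13 and MRPL54 at 104 ± 17.7 CPM per kilobase. The lowest were those of MRPL53 at 0.631 ± 0.195, MRPS31 at 3.50 ± 0.512 and MRPS17 at 6.75 ± 1.30 CPM per kilobase. MRPL53 had 93 counts in all 9 libraries together, which left its fold changes imprecise. MRPL51 and MRPL49 shared exon bases with NCAPD2 and with FAU and SYVN1, and how reads in such overlaps were assigned is not stated. The median transcript length was 551 bases for MRPL51 and 509.5 for MRPL49, whereas their exons together covered 1551 and 2149 bases. Their rank therefore holds for the median transcript only.

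Hypoxia raised more members than it lowered. In vehicle at 1% O2 against vehicle at 20% O2, 25 of the 78 genes were called higher and 3 lower, and 50 were not called. Among all 22672 genes tested, 19.5% were called higher and 20.3% lower, against 32.1% and 3.85% of the members. Genes with a mean above 5 CPM over the 3 groups, a comparison chosen after the values were seen because the members are well expressed, gave 28.6% higher and 19.2% lower. Thus the share of members called higher was close to that of other expressed genes, and the share called lower was smaller. This difference was not tested. By FDR alone, 43 were higher and 9 lower, or 55.1% and 11.5% of the members, where the shares were 27.9% and 25.6% over all genes and 45.3% and 29.9% among genes above 5 CPM. The median log2 fold change was 0.34 for the members, 0.17 for genes above 5 CPM and 0.00 for all genes tested, and single members ran from -1.001 to 1.42. With scaling by total library size the calls split into 13 higher and 7 lower, and with upper quartile scaling into 13 and 6.

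**Figure D1:**
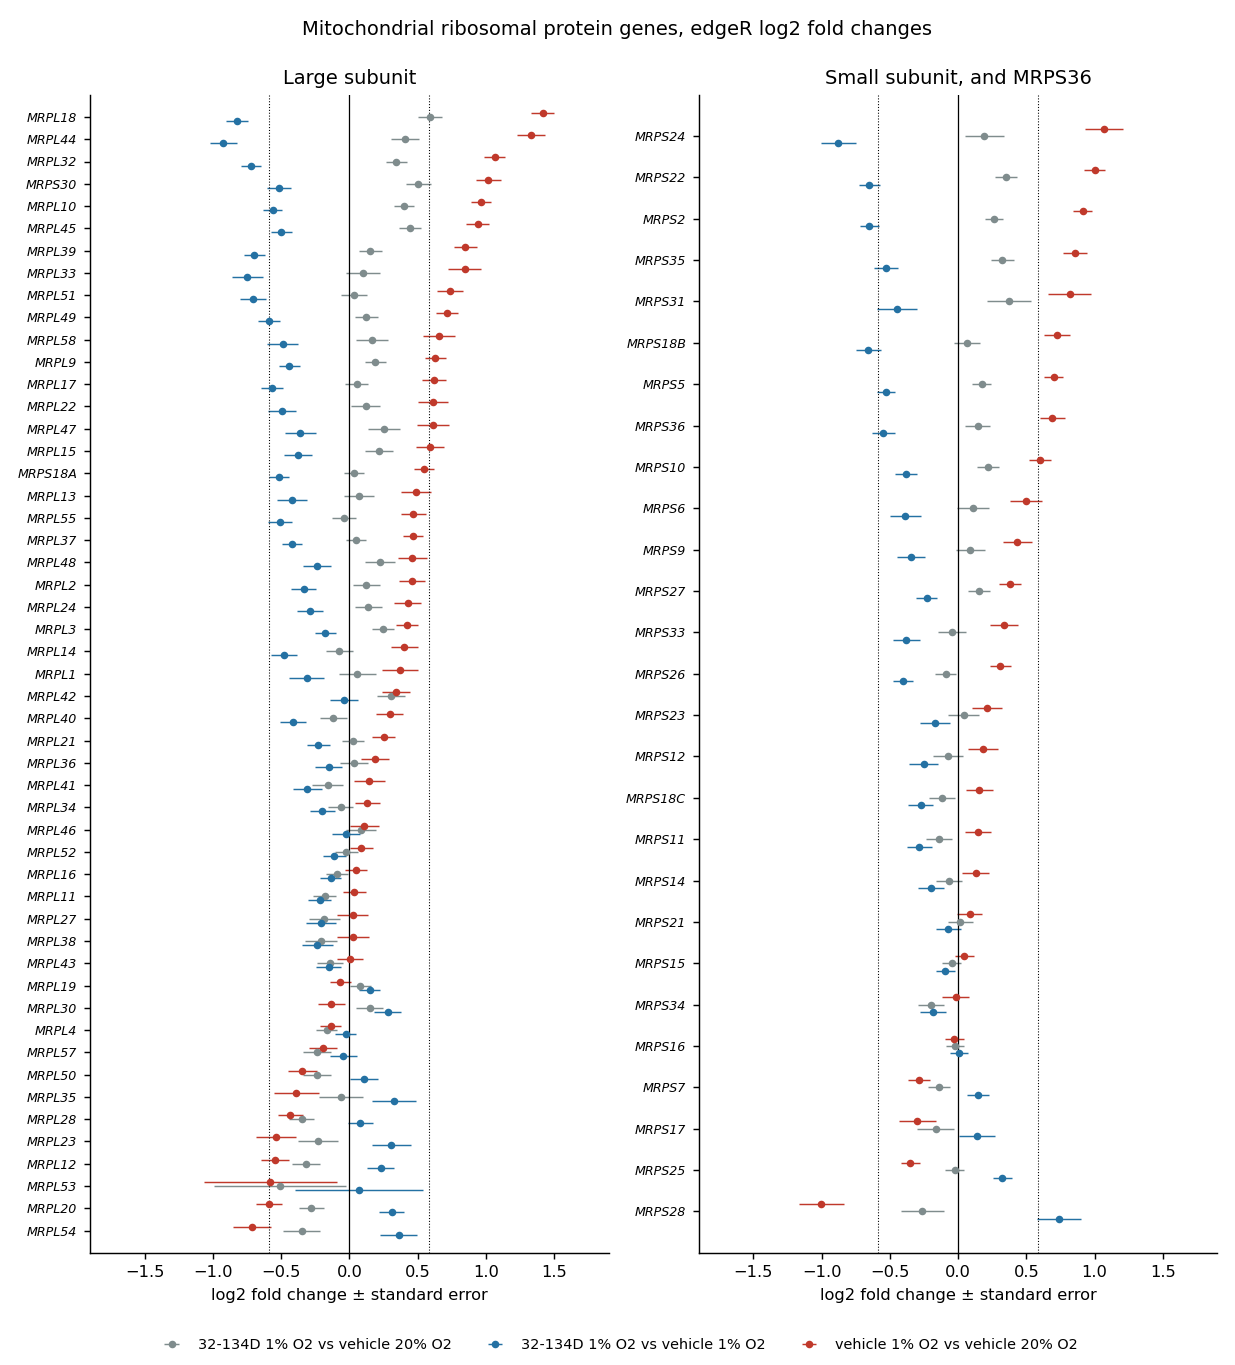
Log2 fold change with its standard error (horizontal axis) for each of the 78 genes (vertical axis, ordered by the hypoxia comparison), with large-subunit genes on the left and small-subunit genes and MRPS36 on the right. Red points are vehicle at 1% against 20% O2, blue points 32-134D against vehicle at 1% O2, grey points 32-134D at 1% O2 against vehicle at 20% O2, and dotted lines mark a fold change of 1.5. Red points lie mostly right of 0, up to 1.42 for MRPL18, and grey points mostly near 0.

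The 5 members with the largest increases were MRPL18, MRPL44, MRPS24, MRPL32 and MRPS30. MRPL18 (uL18m; ENSG00000112110, chromosome 6, 159789812 to 159798436 of GRCh38), a protein of the central protuberance that faces the small subunit, had 64.5, 57.2 and 55.4 CPM in vehicle at 20% O2, 148, 172 and 152 CPM in vehicle at 1% O2 and 94.4, 88.8 and 83.4 CPM in 32-134D at 1% O2. The 3 groups did not overlap, and the 32-134D libraries lay between the others. Its log2 fold change in hypoxia was 1.42 ± 0.0871 (SE, FDR = 4.71e-09), a 2.67-fold rise. MRPL44 (mL44; ENSG00000135900, chromosome 2, 223957404 to 223967714), an RNase III-like protein near the exit of the polypeptide tunnel, had 44.0, 32.8 and 37.5 CPM in vehicle at 20% O2, 91.0, 106 and 93.1 CPM in vehicle at 1% O2 and 53.7, 49.0 and 50.0 CPM in 32-134D at 1% O2. It rose by 1.33 ± 0.1 (SE, FDR = 3.83e-08), and again no 2 groups overlapped.

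MRPS24 (uS3m; ENSG00000062582, chromosome 7, 43866558 to 43869893), the counterpart of the bacterial protein S3 at the mRNA entry site, was expressed at low level. It had 7.24, 7.38 and 5.87 CPM in vehicle at 20% O2, 12.7, 15.1 and 14.3 CPM in vehicle at 1% O2 and 7.91, 8.18 and 6.72 CPM in 32-134D at 1% O2, so the hypoxic vehicle libraries were above the rest and the other two groups overlapped. The change in hypoxia was 1.07 ± 0.139 (SE, FDR = 1.08e-05). MRPS24 shares 77.0% of its exon bases with the read-through gene URGCP-MRPS24, which had 50 counts against 2225. MRPL32 (bL32m; ENSG00000106591, chromosome 7, 42932200 to 42948958), whose maturation needs cleavage by the mitochondrial AAA protease, had 59.4, 52.0 and 53.3 CPM in vehicle at 20% O2, 110.0, 119 and 117 CPM in vehicle at 1% O2 and 71.1, 66.1 and 72.4 CPM in 32-134D at 1% O2. It rose by 1.07 ± 0.0769 (SE, FDR = 2.38e-08). MRPS30, a mitochondrion-specific protein of the large subunit, rose by 1.02 ± 0.092 (SE, FDR = 2.53e-07), from 44.2, 39.3 and 46.7 to 84.4, 90.2 and 91.2 CPM, and stood at 57.3, 59.2 and 69.8 CPM with 32-134D. For both genes the 3 groups were separate.

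The 3 members called lower were MRPS28, MRPL54 and MRPL20. MRPS28 (bS1m; ENSG00000147586, chromosome 8, 79918717 to 80030289), the counterpart of bacterial S1 in the small subunit, had 21.2, 14.0 and 15.2 CPM in vehicle at 20% O2, 6.87, 8.82 and 9.78 CPM in vehicle at 1% O2 and 15.1, 13.8 and 13.3 CPM in 32-134D at 1% O2. Hypoxic vehicle libraries were below all others, and the change was -1.001 ± 0.163 (SE, FDR = 9.50e-05). MRPL54 (mL54; ENSG00000183617, chromosome 19, 3762664 to 3768575), a mitochondrion-specific protein, had 77.8, 59.8 and 57.6 CPM in vehicle at 20% O2, 31.1, 42.6 and 45.8 CPM in vehicle at 1% O2 and 54.4, 51.6 and 47.1 CPM in 32-134D at 1% O2. It fell in hypoxia, with a log2 fold change of -0.71 ± 0.139 (SE, FDR = 0.000488). MRPL20 (bL20m; ENSG00000242485, chromosome 1, 1401908 to 1407313), one of the early-binding proteins of the large subunit in bacteria, had 90.2, 70.3 and 72.6 CPM in vehicle at 20% O2, 50.9, 52.4 and 52.1 CPM in vehicle at 1% O2 and 63.4, 68.4 and 60.8 CPM in 32-134D at 1% O2, a change of -0.59 ± 0.0929 (SE, FDR = 7.12e-05) that lay just past the fold threshold. For MRPL54 and MRPL20 the libraries with 32-134D fell between the other two groups. The next largest decreases among members past the FDR, MRPL12 at -0.54 ± 0.102 (SE, FDR = 0.000337) and MRPL23 at -0.54 ± 0.147 (SE, FDR = 0.00596), passed the FDR but not the fold threshold. MRPL20 and MRPL23 each share exon bases with a gene on the opposite strand, AL391244.1 and MRPL23-AS1, and the strand setting of the counting is not stated. MRPS28 shares 42.0% of its exon bases with AC036214.3 on the same strand, which had 14 counts against 2849.

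**Figure D2:**
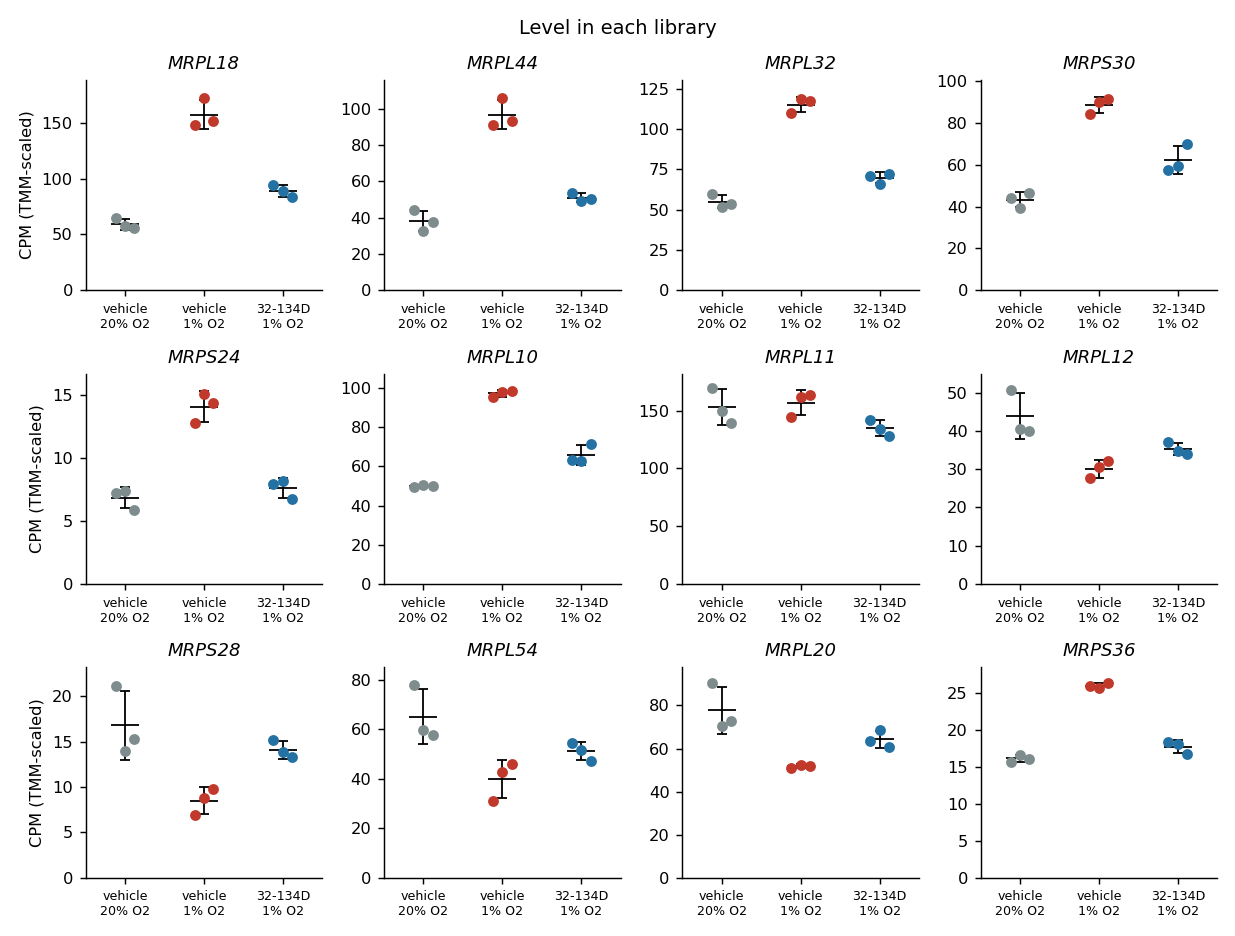
TMM-scaled CPM (vertical axis, from 0) of 12 members in each library, with the groups on the horizontal axis. Points are libraries and black marks the group mean ± SD of 3. MRPL18, MRPL44, MRPL32, MRPS30, MRPS24, MRPL10 and MRPS36 are highest in vehicle at 1% O2, MRPL12, MRPS28, MRPL54 and MRPL20 are lowest there, and MRPL11 overlaps between the vehicle groups.

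Members of one structural site did not always move alike. A case was the L7/L12 stalk, which recruits translation factors. Its base protein MRPL10 (uL10m) had 49.6, 50.4 and 49.7 CPM in vehicle at 20% O2, 95.3, 97.8 and 98.4 CPM in vehicle at 1% O2 and 63.3, 62.7 and 71.5 CPM in 32-134D at 1% O2, and rose by 0.96 ± 0.074 (SE, FDR = 4.63e-08) in hypoxia. MRPL11 (uL11m), beside it, had 169.6, 149 and 139 CPM in vehicle at 20% O2, 144, 162 and 164 CPM in vehicle at 1% O2 and 142, 134 and 128 CPM in 32-134D at 1% O2, so the vehicle groups overlapped, with a change of 0.04 ± 0.0846 (SE, FDR = 0.738). MRPL12 (bL12m), the protein that forms the flexible stalk and is bound by MRPL10, had 50.7, 40.5 and 40.1 CPM in vehicle at 20% O2, 27.6, 30.5 and 32.1 CPM in vehicle at 1% O2 and 37.0, 34.7 and 33.8 CPM in 32-134D at 1% O2. Its change was -0.54 ± 0.102 (SE, FDR = 0.000337), in the direction opposite to that of its partner. MRPL12 shares 68.2% of its exon bases with AC139530.2 on the same strand, which had 0 counts against 7973. Protein levels were not measured.

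Around the exit of the polypeptide tunnel, where nascent membrane proteins leave, 6 of 8 genes were called higher and none lower, with a median log2 fold change of 0.62. The count was 3 higher and 1 lower without replicate 3 of vehicle at 20% O2, without replicate 1 of 32-134D, and with DESeq2, RLE, upper quartile or total library size scaling or the filter of 10 counts in every library, and 2 and 1 with length and GC trends removed. The 6 were MRPL44, MRPL45 at 0.94 ± 0.0827 (SE, FDR = 1.91e-07), which tethers the ribosome to the inner membrane, and MRPL39, MRPL17, MRPL22 and MRPL47, between 0.61 and 0.85. The seventh, MRPL24, changed by 0.43, and the eighth, MRPL23, by -0.54. MRPL39, MRPL17, MRPL22, MRPL47 and MRPL24 are named after their values were seen, as part of the site. Of 8 genes of the central protuberance, 2 were called higher and none lower, with a median of 0.38, and 1 was called higher without replicate 3 of vehicle at 20% O2. The second besides MRPL18 was MRPL58 at 0.66 ± 0.117 (SE, FDR = 0.000225), which is also a peptidyl-tRNA hydrolase and can release stalled peptides. Of 4 genes around the peptidyl transferase center none was called, and their median was 0.24. These groups are small, and no test compared them with each other or with all genes tested. Of the latter, 19.5% were called higher and 20.3% lower.

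Among the other members, MRPS12 (uS12m), at the decoding center, had 61.2, 45.5 and 48.5 CPM in vehicle at 20% O2 and 52.8, 65.1 and 59.1 CPM at 1% O2, which overlapped, with a change of 0.18 ± 0.109 (SE, FDR = 0.178). MRPL36, a counterpart of bacterial L36, likewise overlapped, at 0.19 ± 0.104 (SE, FDR = 0.146). The 3 forms of MRPS18 occupy different places. MRPS18B (mS40) was called higher at 0.72 ± 0.0935 (SE, FDR = 1.02e-05), and MRPS18A, in the large subunit, changed by 0.55 ± 0.0721 (SE, FDR = 1.18e-05), under the fold threshold. MRPS18C (bS18m), the form closest to bacterial S18, had 0.16 ± 0.0959 (SE, FDR = 0.186) and shares 78.9% of its exon bases with ABRAXAS1 on the opposite strand. MRPS36, which is outside the ribosome, had 15.6, 16.6 and 16.1 CPM in vehicle at 20% O2, 25.9, 25.7 and 26.3 CPM in vehicle at 1% O2 and 18.4, 18.1 and 16.7 CPM in 32-134D at 1% O2 and rose by 0.69 ± 0.0904 (SE, FDR = 1.14e-05).

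In hypoxia 16 of the 51 large-subunit genes were called higher and 2 lower, with a median of 0.37 (11 and 4 without replicate 3 of vehicle at 20% O2 or replicate 1 of 32-134D), and 8 of the 26 small-subunit genes were higher and 1 lower, with a median of 0.26. Libraries with 32-134D enter this comparison only through the shared filter, scaling and estimate of the spread. The 46 genes with a bacterial counterpart had a median of 0.22 with 13 higher and 2 lower, which became 7 and 4 without replicate 1 of 32-134D or with DESeq2, and 6 and 6 with total library size. The 31 mitochondrion-specific genes had a median of 0.34 with 11 higher and 1 lower. As shares, 31.4% of large-subunit, 30.8% of small-subunit, 28.3% of bacterial-counterpart and 35.5% of mitochondrion-specific genes were called higher. The lower shares were 3.92%, 3.85%, 4.35% and 3.23%. Of all genes tested, 19.5% were called higher and 20.3% lower, and of genes above 5 CPM 28.6% and 19.2%. None of these differences was tested. Across the 78 genes the hypoxia change had a Spearman correlation of 0.10 with transcript length and -0.28 with GC content, given as a description, since the genes share the same 9 libraries. Members are short, with a median transcript of 1137 bases against 2565 for genes above 5 CPM. When trends over length and GC content across all genes were removed, 15 members were called higher and 6 lower in hypoxia, a change whose cause was not tested.

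**Figure D3:**
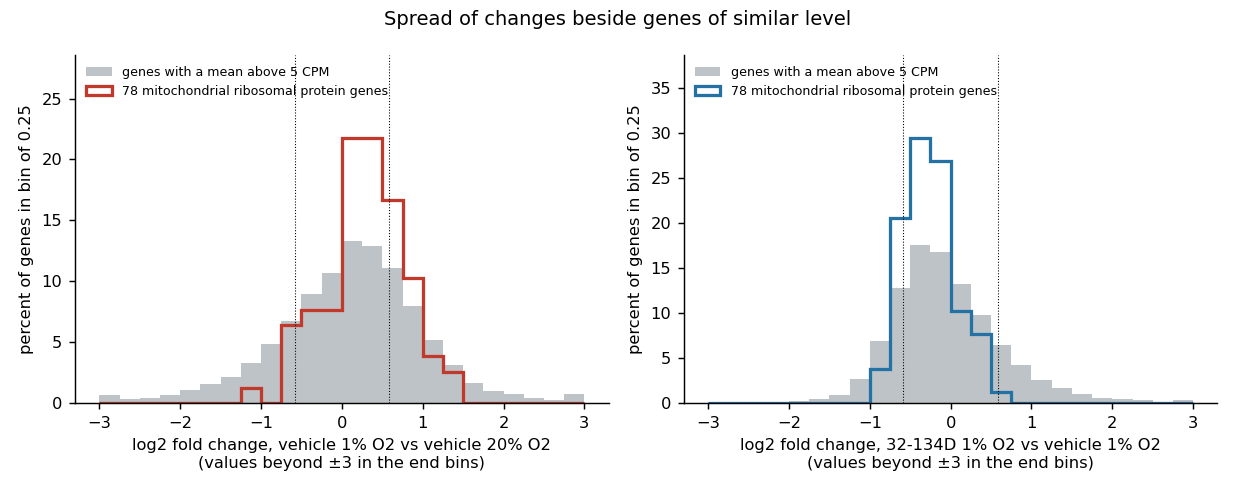
Percent of genes (vertical axis) in bins of 0.25 of the log2 fold change (horizontal axis), for the 78 members (colored outline) and for genes with a mean above 5 CPM (grey), in the hypoxia comparison (left) and the 32-134D comparison (right). The members span -1.001 to 1.42 on the left and -0.92 to 0.74 on the right, inside a wider spread of the other genes, and few lie beyond the lower dotted line on the left.

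At 1% O2, 32-134D lowered more members than it raised. Against vehicle at 1% O2, 11 of the 78 genes were called lower and 1 higher, and by FDR alone 43 were lower and 5 higher. Over all genes tested, 13.7% were called lower and 16.2% higher, and by FDR alone 25.5% and 21.9%. Among genes above 5 CPM the called shares were 19.3% lower and 15.5% higher, against 14.1% and 1.28% of the members, and by FDR alone 42.7% and 26.9%, against 55.1% and 6.41%. So the share of members called lower was again near the background, and the share called higher was below it. The median log2 fold change was -0.29, against -0.14 for genes above 5 CPM and -0.01 for all genes. With total library size the split was 3 lower and 1 higher, with upper quartile scaling 5 and 1, and with length and GC trends removed 4 and 1. In that last setting the member median was -0.12 and that of genes above 5 CPM -0.09. This comparison and the first share the vehicle libraries at 1% O2, so their values are set side by side only.

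The 5 largest decreases with the compound were MRPL44 at -0.92 ± 0.0964 (SE, FDR = 2.06e-06), MRPS24 at -0.88 ± 0.129 (SE, FDR = 5.19e-05), MRPL18 at -0.82 ± 0.0839 (SE, FDR = 1.61e-06), MRPL33 at -0.75 ± 0.116 (SE, FDR = 8.19e-05) and MRPL32 at -0.72 ± 0.0745 (SE, FDR = 1.82e-06). MRPL33 (bL33m), a short protein of the large subunit, had 18.3, 13.3 and 13.1 CPM in vehicle at 20% O2, 26.7, 27.3 and 26.7 CPM in vehicle at 1% O2 and 16.2, 16.7 and 15 CPM in 32-134D at 1% O2, and had changed by 0.85 ± 0.121 (SE, FDR = 2.84e-05) in hypoxia. For each of these 5 genes the 32-134D libraries were below all hypoxic vehicle libraries. The genes with the highest level per kilobase of the median transcript, MRPL51 at -0.71 ± 0.0934 (SE, FDR = 1.98e-05) and MRPL49 at -0.59 ± 0.0804 (SE, FDR = 2.68e-05), were also called lower, as was MRPS18B at -0.66 ± 0.0917 (SE, FDR = 3.22e-05).

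MRPS28 was the 1 gene called higher, at 0.74 ± 0.158 (SE, FDR = 0.00127), and its 32-134D libraries (15.1, 13.8 and 13.3 CPM) lay above the hypoxic vehicle libraries (6.87, 8.82 and 9.78 CPM). A further 4 genes passed the FDR in that direction without reaching the fold threshold. These were MRPL54 at 0.36 ± 0.137 (SE, FDR = 0.0413), MRPS25 at 0.32 ± 0.0687 (SE, FDR = 0.0012), MRPL20 at 0.31 ± 0.0914 (SE, FDR = 0.0114) and MRPL30 at 0.28 ± 0.098 (SE, FDR = 0.0285). At the stalk, MRPL10 changed by -0.56 ± 0.0715 (SE, FDR = 1.36e-05), MRPL11 by -0.22 ± 0.0839 (SE, FDR = 0.0449) and MRPL12 by 0.23 ± 0.0998 (SE, FDR = 0.0735). The sign differed between MRPL10 and MRPL12, although the last did not pass the FDR. The vehicle libraries at 1% O2 are shared with the hypoxia comparison, so this is not a second, independent observation. The genes of the exit tunnel had a median of -0.49, with 2 of 8 called lower, and those of the central protuberance had -0.33, with 1 of 8. Of all genes tested, 13.7% were called lower.

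Compared with vehicle at 20% O2, hypoxic cells given 32-134D differed little in these genes. A single member, MRPL18, was called higher at 0.59 ± 0.0865 (SE, FDR = 0.000481), and none was called lower, where 3.0% and 0.516% of all genes were called. By FDR alone, 9 were higher and 1 lower, or 11.5% and 1.28% of the members, against 7.81% and 2.44% of all genes and 14.5% and 4.49% of genes above 5 CPM. The 9 included MRPS30 at 0.51 ± 0.092 (SE, FDR = 0.00272), MRPL45 at 0.44 ± 0.0826 (SE, FDR = 0.00321), MRPL44 at 0.41 ± 0.1 (SE, FDR = 0.0183) and MRPL10 at 0.40 ± 0.074 (SE, FDR = 0.00307), and the 1 was MRPL28 at -0.35 ± 0.0896 (SE, FDR = 0.0227). The median of the members was 0.04, and it was 0.12 without replicate 1 of vehicle at 20% O2 and -0.02 without replicate 2 or replicate 3, where 16, 4 and 4 members were higher by FDR alone. MRPL18 lay just past the fold threshold, and its call was lost without replicate 2 or 3 of vehicle at 20% O2 or replicate 1 of 32-134D, which left 0 called in each case.

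The RNAs that these proteins assemble with changed more than the proteins' own mRNAs. The 12S rRNA gene MT-RNR1 had 593, 532 and 524 CPM in vehicle at 20% O2, 2409, 2761 and 2825 CPM in vehicle at 1% O2 and 1171, 1159 and 994.9 CPM in 32-134D at 1% O2, with a hypoxia change of 2.28 ± 0.0913 (SE, FDR = 7.93e-11). The 16S rRNA gene MT-RNR2 had 5582, 5360.1 and 5174 CPM in vehicle at 20% O2, 21965, 25788 and 26325 CPM in vehicle at 1% O2 and 10263, 9917 and 8804 CPM in 32-134D at 1% O2, with 2.20 ± 0.0897 (SE, FDR = 9.27e-11). With 32-134D they fell, with log2 fold changes of -1.27 ± 0.0883 (SE, FDR = 4.77e-08) and -1.35 ± 0.0874 (SE, FDR = 2.28e-08), and in neither gene did the 32-134D libraries reach the range of vehicle at 20% O2. Of the 13 mRNAs that the mitoribosome translates, 8 were called lower in hypoxia and none higher, with a median of -0.91, led by MT-ND6 at -2.17 ± 0.101 (SE, FDR = 3.24e-10) and MT-CO3 at -1.80 ± 0.0788 (SE, FDR = 1.91e-10). With the compound 7 of the 13 were called higher and none lower, with a median of 0.71. Of all genes tested, 20.3% were called lower and 19.5% higher in hypoxia, and 16.2% higher and 13.7% lower with the compound. How libraries were selected for mRNA or depleted of rRNA is not given in the sources used here.

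Of 5 proteins of the mitoribosome that carry other names, 1 was called higher in hypoxia, DAP3 (mS29), a GTP-binding protein of the small subunit, at 0.59 ± 0.0885 (SE, FDR = 4.36e-05). Among 26 genes of assembly and rRNA modification, 5 were called higher and 5 lower, with a median of 0.19. That is 19.2% each way, near the 19.5% higher and 20.3% lower of all genes tested. NOA1, a GTPase of small-subunit assembly, rose by 1.40 ± 0.076 (SE, FDR = 1.40e-09), and MRM3, a methyltransferase of the 16S rRNA, by 1.05 ± 0.086 (SE, FDR = 9.31e-08). SPG7, a subunit of the protease that processes MRPL32, changed by -1.08 ± 0.0703 (SE, FDR = 8.44e-09) and TFB1M, which dimethylates the 12S rRNA, by -0.97 ± 0.127 (SE, FDR = 1.19e-05). Among 18 translation factors 4 (22.2%) were called higher and 2 (11.1%) lower, with a median of 0.14. The release factor MTRFR (listed as C12orf65) changed by 0.90 ± 0.09 (SE, FDR = 7.25e-07) and the initiation factor MTIF2 by 0.82 ± 0.0774 (SE, FDR = 4.11e-07), whereas the deformylase PDF changed by -1.13 ± 0.115 (SE, FDR = 8.67e-07) and GUF1, the counterpart of bacterial LepA, by -0.80 ± 0.0716 (SE, FDR = 2.34e-07). With 32-134D, 3 assembly genes were called higher and 2 lower, and 2 translation factors each way. Of all genes tested, 16.2% were called higher and 13.7% lower in that comparison.

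**Figure D4:**
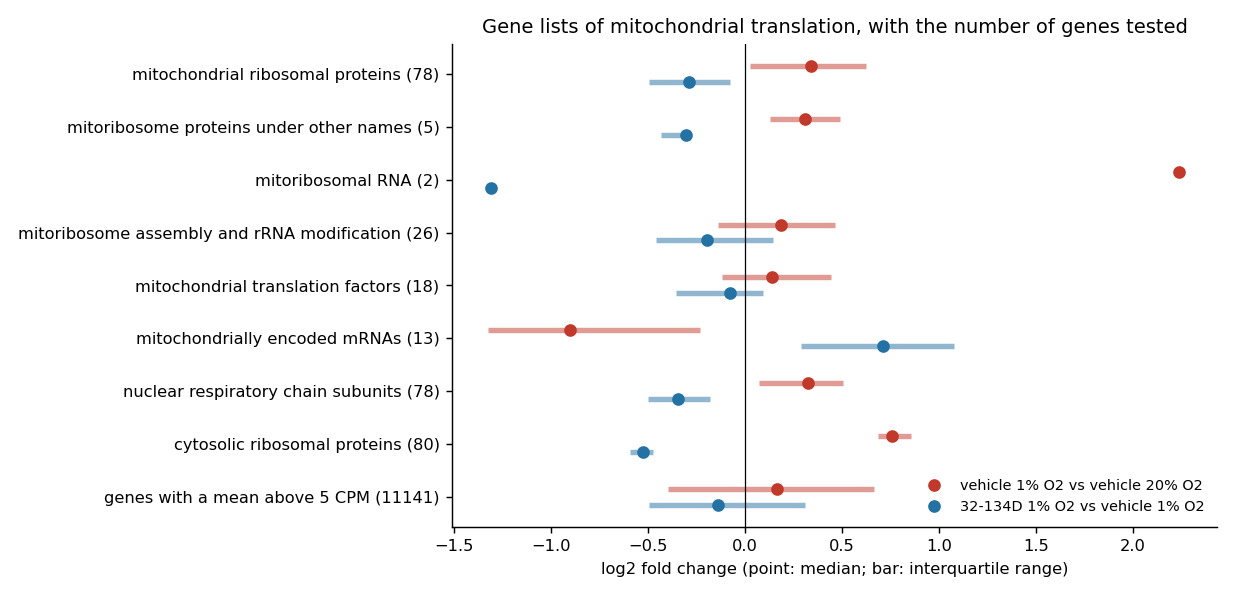
Median log2 fold change (points) and interquartile range (bars) for the members and 8 further sets of genes, with the number tested in parentheses. Red is vehicle at 1% against 20% O2 and blue 32-134D against vehicle at 1% O2. Mitoribosomal RNA has the largest rise (2.24), mitochondrially encoded mRNAs have the one negative median in hypoxia (-0.91), and the members (0.34) lie between genes above 5 CPM (0.17) and cytosolic ribosomal proteins (0.76).

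The genes of the cytosolic ribosome, which makes the mitoribosomal proteins, served for comparison. Of 80 tested, 69 were called higher in hypoxia and none lower, with a median of 0.76 and an interquartile range of 0.69 to 0.85, where that of the members ran from 0.03 to 0.63. With 32-134D, 25 of the 80 were called lower and none higher, with a median of -0.53. The nuclear genes for respiratory chain subunits, whose products join the mitochondrially made ones, had a median of 0.33 in 78 tested. Of these, 12 (15.4%) were called higher in hypoxia and 1 (1.28%) lower. With the compound their median was -0.35, with 10 (12.8%) called lower and none higher. Over all genes tested, 19.5% were called higher and 20.3% lower in hypoxia, and 16.2% higher and 13.7% lower with the compound. Among 11 regulators of nuclear genes for mitochondria 7 were called higher and 1 lower in hypoxia. MXI1, a MYC antagonist and HIF target, rose by 3.57 ± 0.119 (SE, FDR = 1.40e-11), MYC by 1.08 ± 0.13 (SE, FDR = 4.63e-06), and the coactivator gene PPARGC1B fell, with -2.94 ± 0.58 (SE, FDR = 0.000534) on 123 counts. In MYC, replicate 3 of 32-134D stood at 195.9 CPM against 124.7 and 132.3 CPM in its group, within the range of hypoxic vehicle.

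Promoter sequences from RefSeq (GRCh38.p14, 250 bases before and 50 after the transcription start) were matched for 69 of the 78 genes, and 5 words were searched on both strands after the expression values were known. The word AAGATGGC, the core bound by the factor YY1, was in 20 of the 69 (28.99%), against 3.03% of all 27305 promoters in the table and 3.99% of the 14896 of protein-coding genes. It lay on the gene's own strand in 16, within the 50 bases after the start in 15, and in 12 the ATG inside it was an annotated start codon, so in those the word spans the first codon. The 8 called genes with the word after the start are printed to show the bases around it, MRPL20 being lower and the others higher in hypoxia. They were picked for holding the word, so sharing it is no result. The stretches are in lower case with the word in capitals and 30 bases each, read 5′ to 3′ on the gene's strand.
MRPL22 (chr5:154941093-154941122, plus strand): gtagcgggagggcgaAAGATGGCggcggca
MRPL45 (chr17:38297170-38297199, plus strand): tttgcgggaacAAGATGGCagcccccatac
MRPL51 (chr12:6493223-6493252, minus strand): gggtaaggcccAAGATGGCtgtcttcgcct
MRPS10 (chr6:42217834-42217863, minus strand): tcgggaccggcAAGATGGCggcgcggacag
MRPS18B (chr6:30617852-30617881, plus strand): gggcgtacgtcAAGATGGCggcgtctgtat
MRPS24 (chr7:43869480-43869509, minus strand): ccgcttggcccAAGATGGCggcctccgtgt
MRPS30 (chr5:44808949-44808978, plus strand): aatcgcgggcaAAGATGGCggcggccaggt
MRPL20 (chr1:1407260-1407289, minus strand): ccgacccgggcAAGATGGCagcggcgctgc

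Members with and without the word overlapped in their change in hypoxia, from -0.59 to 1.07 with it and from -0.71 to 1.42 without it. The 20 genes with it had a median log2 fold change of 0.47, with 9 called higher and 1 lower, and the 49 without it had 0.30, with 13 higher and 1 lower. Of all genes tested, 19.5% were called higher and 20.3% lower, and of genes above 5 CPM 28.6% and 19.2%. The ETS word CCGGAAGT, bound by GABPA, was in 15.9% of member promoters, against 4.44% of all and 6.36% of those of protein-coding genes. The NRF1 word CGCATGCG was in 4.35%, against 2.19% and 2.89%. The E-box CACGTG was in 8.70%, against 7.43% and 8.94%, so that its share fell between these. The core of the HIF response element, ACGTG, which is part of that E-box, was in 27.5%, against 21.6% and 23.8%. Genes with ACGTG had a median of 0.43 (19 genes) and those without 0.32 (50 genes), whereas genes with the ETS word had 0.05 (11 genes) and those without it 0.36 (58 genes). For the E-box the medians were 0.54 (6 genes) and 0.31 (63 genes), and for the NRF1 word 0.61 (3 genes) and 0.32 (66 genes). None of these differences was tested. In the same libraries YY1 mRNA changed by 0.52 ± 0.0624 (SE, FDR = 4.53e-06), NRF1 by 1.04 ± 0.0833 (SE, FDR = 6.80e-08) and GABPA by 0.75 ± 0.086 (SE, FDR = 3.10e-06) in hypoxia, genes named after their values were seen because their words were searched. A match of letters is a description and does not show binding.

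The 250 bases before the start are given for MRPL18, which had the largest rise and none of the 5 words there, and for MRPL54, which had the largest fall among genes matched and holds ACGTG close to its start, in capitals.
MRPL18 (chr6:159789562-159789811, plus strand): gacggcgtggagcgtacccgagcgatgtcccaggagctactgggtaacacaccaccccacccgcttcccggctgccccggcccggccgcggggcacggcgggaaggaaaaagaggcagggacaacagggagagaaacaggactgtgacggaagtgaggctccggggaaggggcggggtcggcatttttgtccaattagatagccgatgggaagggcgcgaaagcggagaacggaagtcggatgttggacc
MRPL54 (chr19:3762432-3762681, plus strand): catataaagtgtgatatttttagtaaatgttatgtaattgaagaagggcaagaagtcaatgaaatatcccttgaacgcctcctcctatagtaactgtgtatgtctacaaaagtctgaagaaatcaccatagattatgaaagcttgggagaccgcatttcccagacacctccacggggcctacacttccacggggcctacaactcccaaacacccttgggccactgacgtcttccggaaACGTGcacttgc

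The calls differed in how far they depended on single libraries and on the scaling. Of the 28 genes called in hypoxia, 12 were also called, at the same thresholds, in every alternative fit and with each library left out, namely MRPL10, MRPL18, MRPL32, MRPL33, MRPL44, MRPL45, MRPS2, MRPS22, MRPS24, MRPS28, MRPS30 and MRPS35, among which MRPS2, MRPS22 and MRPS35 are named after their values were seen. For the compound 4 of 12 were, MRPL18, MRPL44, MRPS24 and MRPS28. The median of the members stayed above that of all genes tested in hypoxia, and below it with 32-134D, in each setting plotted. Another scaling moves both medians nearly alike, so the settings that change only the scaling could hardly alter this order. Genes above 5 CPM lay closer to the members. In hypoxia the members had 0.34 and these genes 0.17 as reported. With length and GC trends removed the values were 0.19 and 0.11, and without replicate 3 of vehicle at 20% O2 0.26 and 0.16.

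**Figure D5:**
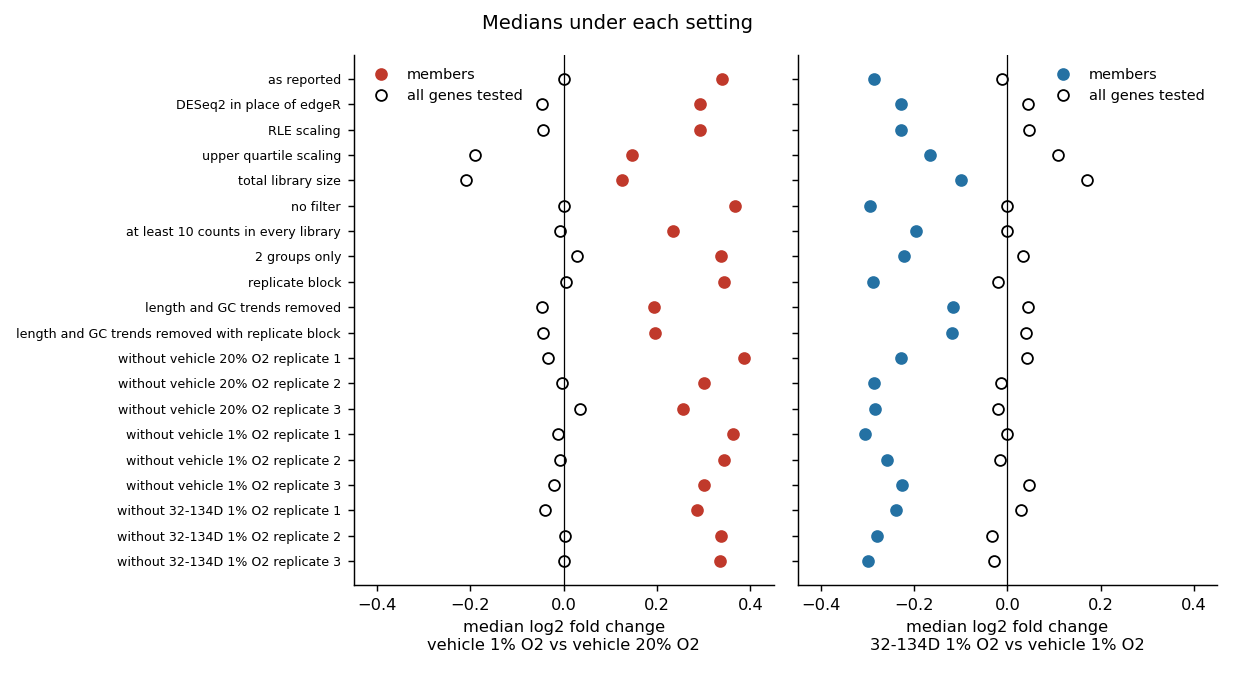
Median log2 fold change (horizontal axis) of the 78 members (filled) and of all genes tested (open) under each setting (vertical axis), for hypoxia (left) and 32-134D (right). The member median in hypoxia is 0.34 as reported and 0.12 with total library size, where the median of all genes moves to -0.21. The distance between them is 0.34 as reported and runs from 0.22 without replicate 3 of vehicle at 20% O2 to 0.42 without replicate 1, and for 32-134D it is -0.28 as reported and -0.16 with length and GC trends removed.

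Reads can be shared with other genes. Exon bases overlapped with another gene in 34 members, and in 18 that gene had at least 10% of the member's count. Of these 18, 4 were called higher in hypoxia (MRPL32, MRPL47, MRPL49 and MRPL51) and 1 lower (MRPL20), where 19.5% and 20.3% of all genes tested were called. The 18 were picked by the count of the other gene and not by the bases shared. Members with a large overlap and a partner of few counts were thus left out. Examples are MRPS24, MRPL12, MRPS28 and MRPL46, the last sharing 45.3% of its exon bases with AC013489.1 (6 counts). Among 79 listed MRP pseudogenes, 2 had above 5% of the count of their parent, MRPS31P5 with 6.30% and MRPS31P4 with 5.81% of MRPS31, which makes the value of MRPS31 less certain. The neighbours MRPL46 and MRPS11, named for their position, which start 33 bases apart on opposite strands, changed by 0.11 and 0.15 in hypoxia.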

How the data were processed

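Read counts per Ensembl gene (raw, whole numbers) for 9 Hep3B libraries were taken as the authors deposited them, made per their methods with FastQC, Bbduk, STAR (Ensembl release 100, GRCh38) and featureCounts. Versions, strand setting and the treatment of multimapping reads are not given in the sources used here, and the labels and the paper's methods describe different culture media. The counts were tested with edgeR 4.0.16 in R 4.3.3 (TMM, quasi-likelihood test, 1 fit of the 9 libraries, genes with at least 10 counts in total, Benjamini-Hochberg FDR). The standard error is the absolute log2 fold change divided by the square root of F. The common biological coefficient of variation was 10.5%. No pair of replicates was a duplicate, since chi-square divided by its degrees of freedom was 1.64 or more. Same-numbered libraries of different groups did not deviate together.

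Level per length is CPM per kilobase of the median transcript in GENCODE version 29, used also for positions. DESeq2 1.42.0, other scalings, filters and thresholds, a replicate block, removal of length and GC trends and leaving out each library were the alternatives, and the procedure was tested on simulated data. Members, lists, the words searched, the 5 CPM comparison and the promoters printed were chosen with earlier results of these data known. Named members are, in each comparison and direction, the 5 with the largest change at FDR below 0.05, those called against the majority, the 3 highest and 3 lowest per length, and fixed roles, and in other lists the 2 with the largest called change in each direction. Trend removal was recentred by TMM after the median of all genes was seen to shift.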

Additional observations from a re-analysis of the deposited data

How the results depend on the processing

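In hypoxia the calls, 25 higher and 3 lower as reported, were 43 and 9 by FDR alone, 5 and 1 at a fold change above 2, 13 and 6 with upper quartile scaling, 13 and 7 with total library size, and 15 and 6 with length and GC trends removed, also with the replicate block added. The lower calls were 5 with DESeq2, with RLE scaling and with at least 10 counts in every library. With 32-134D against vehicle at 1% O2, 1 higher and 11 lower became 5 and 43 by FDR alone, 0 and 0 at a fold change above 2, and the lower calls were 5 with upper quartile scaling, 3 with total library size, 7 with a minimum of 10 counts per library, 4 with length and GC trends removed and 5 with the replicate block added to that. Against vehicle at 20% O2, the 1 higher call became 0 with upper quartile scaling, total library size, length and GC trends removed with the replicate block, a minimum of 10 counts per library, and a fold change above 2, and there were 9 higher and 1 lower by FDR alone. The scaling moved the median of all genes in hypoxia from 0.00 to -0.21 with total library size. What caused the calls to differ between settings was not tested.

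Leaving out each library gave 19 to 27 higher and 1 to 5 lower in hypoxia, with 1 without replicate 1 of vehicle at 1% O2 and 5 without replicate 3 of either vehicle group or replicate 1 of 32-134D. The last is not part of the hypoxia comparison but of the shared fit. Without it the median of all genes in hypoxia was -0.04, and that of the members lay 0.33 above it. With the compound it gave 1 higher throughout and 7 to 12 lower, 7 without replicate 3 of vehicle at 1% O2. Against vehicle at 20% O2 it gave 0 to 1 higher and 0 lower. The replicate block gave 25 higher and 2 lower in hypoxia, 1 and 11 with the compound, and 1 and 0 against vehicle at 20% O2. Same-numbered libraries correlated from -0.2212 to 0.0873 in their deviations, and 0 of 9 libraries correlated best with its own number. No pairing by number was seen, although 3 libraries per group cannot exclude one. The single gene MRPL53, with 93 counts, is limited by depth.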
